A study of Homo sapiens with 2 samples.

Results

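CD44 and 9 of its neighbours on the short arm of chromosome 11 were followed in single cells of MDAMB468 and CAL51, human cell lines of triple-negative breast cancer. The 10 genes were a given list, and their Ensembl identifiers were found among the 30796 deposited genes through a symbol table. The genes were chosen by their position and by the summed UMI counts of the lines, with the line ratios known, so those ratios are a description and carry no test. Each line was 1 Drop-seq library, a droplet method in which the 3′ end of each messenger RNA receives a barcode for its cell and a molecular tag whose distinct copies are counted as unique molecular identifiers (UMIs). The labels give breast as the tissue, triple negative breast cancer as the cell type and name no treatment for either line. With 1 library per line there is no replicate check, and every interval is at 95% and covers counting error alone. For MDAMB468 there were 5501900 UMIs over 306 barcodes. For CAL51 there were 16223444 UMIs over 1346 barcodes, after 31 barcode sequences that occurred under both line names were left out of it.

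CD44 is a cell surface receptor for hyaluronan, a long sugar polymer of the matrix between cells, and it is widely used as a marker of basal-like and mesenchymal breast cancer cells. Its transcripts are spliced into several isoforms that differ in the stem of the protein outside the cell, and counts from the 3′ end do not separate them. The neighbours have unrelated roles. TRAF6 is a ubiquitin ligase downstream of interleukin-1 and Toll-like receptors, HIPK3 a nuclear kinase, and EHF an ETS transcription factor of epithelial cells. CAT is catalase, which breaks down hydrogen peroxide in peroxisomes. PDHX is a structural subunit of the mitochondrial pyruvate dehydrogenase complex, and APIP is an enzyme of the methionine salvage pathway. CSTF3 is a subunit of the cleavage stimulation factor that helps to form the 3′ ends of messenger RNAs, CAPRIN1 an RNA-binding protein of stress granules, and NAT10 the acetyltransferase that places N4-acetylcytidine on RNA.

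In the order of GENCODE release 29 on GRCh38, CSTF3 (ENSG00000176102) lies at chromosome 11, 33077188 to 33162371, and HIPK3 (ENSG00000110422) at 33256672 to 33357023. CAPRIN1 (ENSG00000135387) follows at 34051683 to 34101156, NAT10 (ENSG00000135372) at 34105602 to 34147670, CAT (ENSG00000121691) at 34438925 to 34472062 and EHF (ENSG00000135373) at 34621093 to 34661057. APIP (ENSG00000149089, 34853094 to 34916499) and PDHX (ENSG00000110435, 34915829 to 35020591) lie on opposite strands and overlap by 671 bases at their starts. CD44 (ENSG00000026508) spans 35138870 to 35232402. TRAF6 (ENSG00000175104, 36487027 to 36510272) is the only listed gene beyond CD44, and it is commonly assigned to the adjoining band 11p12 and not to 11p13. CSTF3, APIP and TRAF6 are on the minus strand and the other listed genes on the plus strand. The sources used here do not give the genome build of the deposited counts, so the positions are those of the annotation.

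The promoter windows of 5 genes are shown because their values below are set beside each other. CD44 and CAT had the highest line ratios, EHF was low in the same CAL51 clusters as CD44, and APIP and PDHX start back to back. Each is the RefSeq window (GRCh38.p14) from 250 bases before to 50 bases after a transcript start, read 5′ to 3′ on the gene's strand. Capitals mark matches, on either strand, to the GC box GGGCGG and the CCAAT box CCAAT. The TATA box TATAAA, the ETS motif CCGGAAG and the AP-1 motif TGACTCA were searched in the same way and had no match in the 5 windows.
CD44 promoter window, chr11:35138921-35139220, + strand: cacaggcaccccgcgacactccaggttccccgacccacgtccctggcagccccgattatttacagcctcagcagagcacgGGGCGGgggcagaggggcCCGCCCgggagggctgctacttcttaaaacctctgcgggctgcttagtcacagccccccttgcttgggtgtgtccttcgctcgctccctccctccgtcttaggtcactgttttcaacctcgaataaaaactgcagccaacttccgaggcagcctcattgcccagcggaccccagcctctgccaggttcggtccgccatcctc
CAT promoter window, chr11:34438684-34438983, + strand: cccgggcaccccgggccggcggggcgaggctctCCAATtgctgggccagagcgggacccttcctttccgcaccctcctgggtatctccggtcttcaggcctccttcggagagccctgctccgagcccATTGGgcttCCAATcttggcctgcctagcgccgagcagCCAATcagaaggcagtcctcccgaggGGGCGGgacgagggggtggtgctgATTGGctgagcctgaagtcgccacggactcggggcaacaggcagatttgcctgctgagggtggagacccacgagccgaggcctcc
EHF promoter window, chr11:34624007-34624306, + strand: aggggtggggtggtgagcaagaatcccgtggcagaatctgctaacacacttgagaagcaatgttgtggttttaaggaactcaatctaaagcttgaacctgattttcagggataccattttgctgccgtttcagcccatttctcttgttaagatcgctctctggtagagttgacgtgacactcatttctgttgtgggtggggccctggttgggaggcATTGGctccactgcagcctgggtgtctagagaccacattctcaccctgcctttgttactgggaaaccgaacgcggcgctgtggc
APIP promoter window, chr11:34916330-34916629, - strand: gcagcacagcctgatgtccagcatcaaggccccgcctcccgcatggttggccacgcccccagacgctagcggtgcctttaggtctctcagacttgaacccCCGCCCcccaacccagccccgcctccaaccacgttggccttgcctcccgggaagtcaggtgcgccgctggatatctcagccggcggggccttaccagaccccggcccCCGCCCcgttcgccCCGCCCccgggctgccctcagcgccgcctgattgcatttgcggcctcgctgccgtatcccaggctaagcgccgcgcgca
PDHX promoter window, chr11:34916188-34916487, + strand: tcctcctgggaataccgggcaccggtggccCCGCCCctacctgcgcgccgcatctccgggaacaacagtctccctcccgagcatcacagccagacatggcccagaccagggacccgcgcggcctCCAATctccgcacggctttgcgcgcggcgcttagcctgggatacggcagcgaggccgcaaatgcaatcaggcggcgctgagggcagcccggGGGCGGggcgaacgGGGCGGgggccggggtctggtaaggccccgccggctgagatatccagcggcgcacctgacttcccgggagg

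The CD44 window held 2 GC boxes and none of the other motifs. The CAT window held 5 CCAAT boxes and 1 GC box. Of all 35116 RefSeq windows of this length, 45.0% held a GC box, 34.6% a CCAAT box, 11.5% a TATA box, 10.3% the ETS motif and 4.95% the AP-1 motif. The windows of APIP and PDHX overlapped by 158 bases, from 34916330 to 34916487, and that stretch held GC boxes that both windows count. EHF and PDHX each had 1 further listed start, and the window of the first start is shown. The matches describe the letters and show no binding.

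Of the 10 listed genes, CD44 and CAT had the highest line ratios. CD44 had 1762 UMIs in MDAMB468, or 320 CPM (the UMIs of the gene scaled to a fixed line total, interval 305 to 336). In CAL51 it had 925 UMIs, or 57.0 CPM (interval 53.4 to 60.8). The ratio of MDAMB468 to CAL51 was 5.62 (interval 5.18 to 6.09). CAT had 826 UMIs (150.1 CPM, interval 140.1 to 160.7) and 417 UMIs (25.7 CPM, interval 23.3 to 28.3), a ratio of 5.84 (interval 5.19 to 6.59). Both genes stood in the upper tail of the 15347 genes with at least 20 UMIs over both lines, at percentiles 92.4 and 92.6 of the line ratio.

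**Figure D1:**
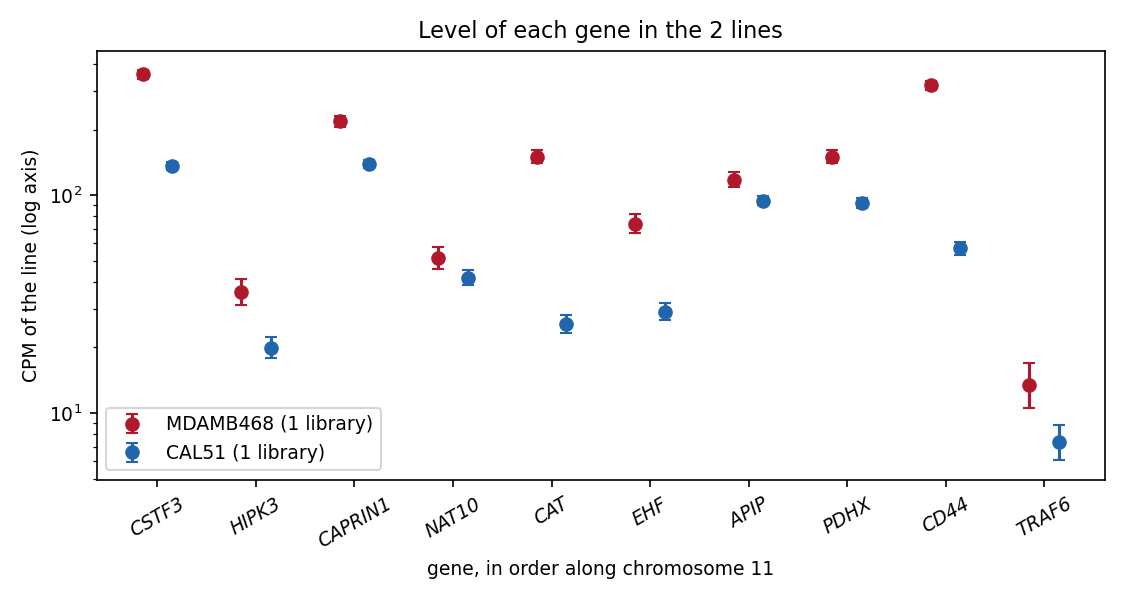
Level of the 10 genes in MDAMB468 (red) and CAL51 (blue), as CPM of the line on a log axis, in order along the chromosome. Points are 1 library each and bars are 95% Poisson intervals of the UMI count; every red point lies above its blue partner, by 1.23-fold for NAT10 up to 5.84-fold for CAT.

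Among the signalling and transcription genes the ratios were lower. EHF counted 407 UMIs, or 74.0 CPM (67.0 to 81.5), in MDAMB468. CAL51 held 473 UMIs of it, or 29.2 CPM (26.6 to 31.9), which made a ratio of 2.54 (2.22 to 2.90). HIPK3 had 198 and 324 UMIs (36.0 and 19.97 CPM), a ratio of 1.80 (interval 1.50 to 2.16). TRAF6 was thinly counted, with 74 and 119 UMIs (13.4 and 7.34 CPM), and its ratio of 1.83 had the wide interval of 1.35 to 2.47.

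The mitochondrial gene PDHX and the methionine salvage gene APIP had line ratios above 1 and below 2-fold. PDHX had 825 UMIs in MDAMB468 (149.9 CPM) and 1494 in CAL51 (92.1 CPM), a ratio of 1.63 (interval 1.49 to 1.77). APIP, which starts from the same stretch on the other strand, had 649 and 1533 UMIs (118 and 94.5 CPM), a ratio of 1.25 (interval 1.14 to 1.37). The ratio of PDHX was thus the higher of this back-to-back pair, and their intervals did not overlap.

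The RNA-processing genes spanned a wider range. CSTF3 had 1972 and 2205 UMIs (358 and 135.9 CPM), a ratio of 2.64 (interval 2.48 to 2.80). CAPRIN1 had 1202 and 2258 UMIs (218 and 139 CPM), a ratio of 1.57 (interval 1.46 to 1.68). Its next gene, NAT10, had 284 and 679 UMIs (51.6 and 41.9 CPM), and its ratio of 1.23 (interval 1.07 to 1.42) was the lowest of the 10.

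All 10 genes had a ratio above 1, against 44.9% of all genes tested, and the counting interval lay above 1 for all 10, against 31.2% of all genes. Past 2-fold in favour of MDAMB468 were 4 of the 10 (CD44, CAT, CSTF3 and EHF), against 18.9% of all genes, and past 4-fold 2 of the 10 (CD44 and CAT), against 9.4%. None was past 2-fold in favour of CAL51, against 22.4% of all genes, and 0 had an interval below 1, against 39.5%. Because the list was chosen with these ratios known, the counts are given as a description. The median ratio was 1.82 over the 10 genes and 0.906 over all genes tested. Other scalings shifted the median of all genes by -0.14 to 0.10 on the log2 scale, so each ratio was also set against that median. Relative to it, CD44 stood 6.20-fold and CAT 6.44-fold higher in MDAMB468, and the lowest, NAT10 and APIP, 1.36-fold and 1.38-fold. Each of the 10 ratios stayed above 1 in all 10 other settings run.

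The surrounding stretch was tilted in the same direction. From 1 Mb below CSTF3 to 1 Mb above TRAF6 (chromosome 11, 32077188 to 37510272), 33 genes had at least 20 UMIs, 23 of them outside the list. Of those 23, 22 had a ratio above 1 and 17 were past 2-fold in favour of MDAMB468, with a median ratio of 2.63. On chromosome 11 outside this window, 442 of 777 genes (56.9%) had a ratio above 1, and the median was 1.14. The window therefore stood higher than the rest of its chromosome, with the listed genes at the lower side of it. In bins of 5 Mb along the chromosome, the bin from 30 to 35 Mb had a median ratio of 2.34, with 30 of 32 genes above 1. The bins from 25 to 30, 35 to 40 and 40 to 45 Mb had medians of 1.95, 2.07 and 2.37 over only 12, 8 and 10 genes. These were the 4 highest medians of the 26 bins with genes, while the bins from 15 to 20 and from 45 to 50 Mb had medians of 0.595 and 0.851. The copy number of this stretch in either line was not measured here.

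**Figure D2:**
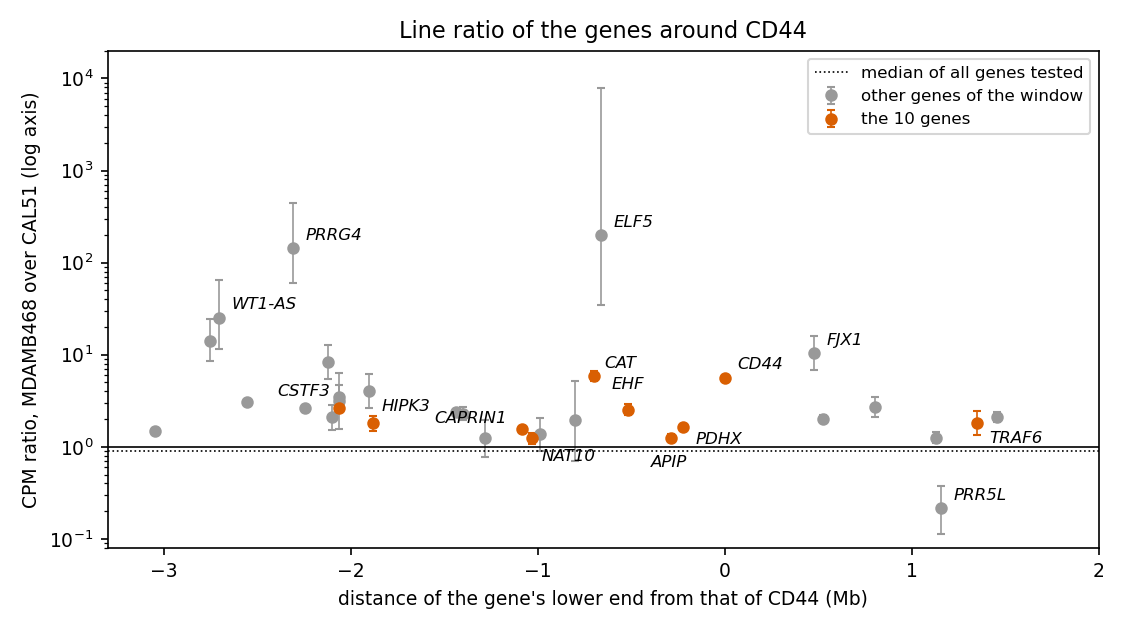
CPM ratio of MDAMB468 over CAL51 (log axis) for the 33 genes tested around CD44, against the distance of each gene's lower end from that of CD44 in Mb. Orange points are the 10 listed genes, grey points the other genes of the window, bars 95% counting intervals; all points but PRR5L lie above 1.

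Single genes of the window departed far from that level. ELF5, an ETS factor of luminal progenitor cells that lies between CAT and EHF, had 67 UMIs in MDAMB468 and 1 in CAL51, which gives a ratio of 198 (34.3 to 7918). PRRG4, a membrane protein gene, had 243 and 5 UMIs (ratio 143, interval 60.6 to 445), and WT1-AS, a transcript antisense to WT1, had 60 and 7 (ratio 25.3, interval 11.5 to 65.5). The nearest tested gene beyond CD44 was FJX1, with 109 and 31 UMIs and a ratio of 10.4 (interval 6.90 to 16.0), so CD44 lay between PDHX at 1.63 and FJX1 at 10.4. At the low end, PRR5L had 13 and 179 UMIs, a level in CAL51 4.67 times that in MDAMB468 (2.66 to 8.94). LMO2 (29 and 69 UMIs, ratio 1.24, interval 0.774 to 1.94) and COMMD9 (302 and 707 UMIs, ratio 1.26, interval 1.10 to 1.44) had the next lowest ratios among the unlisted genes.

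The position of CD44 against its neighbours was measured by dividing its line ratio by theirs, a quantity that does not depend on how the libraries are scaled. The ratio of CD44 was 4.55 times that of NAT10 (interval 3.88 to 5.34), 4.50 times that of APIP (interval 3.98 to 5.08) and 3.58 times that of CAPRIN1 (interval 3.22 to 3.98). Against PDHX, the nearest listed gene, it was 3.45 times as high (interval 3.07 to 3.88). The values were 3.12 for HIPK3 (interval 2.57 to 3.78), 3.06 for TRAF6 (interval 2.27 to 4.14), 2.21 for EHF (interval 1.90 to 2.58) and 2.13 for CSTF3 (interval 1.93 to 2.35). Only CAT could not be told from CD44 by its counts, at 0.962 (interval 0.834 to 1.11). With single barcodes weighing the same, in place of sums over barcodes, the values were 6.85 for NAT10, 6.81 for APIP and 1.22 for CAT, each above its interval. CAT and CD44 are not adjacent: EHF, APIP and PDHX lie between them. Over the 45 pairs of listed genes, 36 had an interval without 1. The list was chosen with the line ratios known and the intervals cover counting error alone, so this number is a description. Pairs of other genes were not counted in this way, so whether that number is particular to these genes was not tested.

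Cells were then compared within each line at equal depth. Satellite barcodes, which lie 1 base from a neighbour in their own library that has 5 or more times as many UMIs, were left out here, 64 in MDAMB468 and 7 in CAL51, and every remaining cell was thinned to 2500 UMIs. CD44 was seen in 113 of 242 MDAMB468 cells (46.7%, interval 40.3% to 53.2%) and in 119 of 1339 CAL51 cells (8.89%, interval 7.42% to 10.5%). Without thinning the shares were 86.0% and 22.2%, at median depths of 14828.5 and 8660 UMIs. For RNA from the other line, KRT7, a keratin gene of MDAMB468, was seen in 0 of 1339 CAL51 cells. With a 0 taken as up to 3 cells, this allows a share of up to 0.224%, and the exact interval reaches 0.275%. GSTP1, a gene of CAL51, was seen in 1 of 242 MDAMB468 cells (0.413%). Beside those shares the CD44 share in CAL51 was 8.89%, and a part of RNA from the other line in it was not tested. The other 9 genes were seen in 2.89% (TRAF6) to 57.9% (CSTF3) of MDAMB468 cells and in 2.02% (TRAF6) to 30.3% (CSTF3) of CAL51 cells. At this depth APIP and NAT10 were seen about as often in both lines, at 21.5% and 10.3% of MDAMB468 cells against 22.3% and 10.2% of CAL51 cells. At 5000 UMIs APIP was seen in 44.2% of MDAMB468 cells (interval 37.4% to 51.3%) and 36.9% of CAL51 cells (interval 34.0% to 39.8%). NAT10 was seen in 17.3% and 18.7% there.

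CD44 was spread unevenly over the CAL51 cells. Its Fano factor, the variance of the thinned counts over their mean, was 1.66 in CAL51, the highest of the 10 genes there, while the other 9 lay between 1.03 and 1.14 in that line. In MDAMB468 the Fano factor of CD44 was 1.19. At full depth 1042 CAL51 cells had no CD44 UMI, while the mean was 0.683 UMIs per cell with a Fano factor of 8.30, a value that also contains the spread of depths.

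The level of CD44 also differed between groups of CAL51 cells. Clustering without the 10 genes gave 6 clusters in CAL51, and the leading genes named here are descriptions of them. CD44 was at 88.3 CPM (interval 76.0 to 102) in cluster 3, with 249 cells led by genes that include APOE and APOC1, and at 86.9 CPM (interval 79.3 to 94.9) in cluster 0, with 345 cells led by linker histone genes. It was at 61.1 CPM (interval 52.6 to 70.5) in cluster 2, with 267 cells led by genes that include PTGDS and ADAMTS8. In cluster 4, the 187 cells led by mitotic genes such as CENPE and PLK1, it was at 14.99 CPM (interval 10.4 to 20.9). In cluster 1, the 282 cells led by NTS and COL2A1, it was at 3.55 CPM (interval 1.77 to 6.35), from 11 UMIs. Cluster 5 had 9 cells led by interferon response genes such as IFIT2, and CD44 was at 160 CPM there (interval 87.4 to 268, 14 UMIs). The highest and lowest clusters of at least 50 cells thus differed 24.9-fold (interval 13.6 to 50.7). The median gene with at least 100 UMIs differed 1.43-fold over the same clusters, and 0.113% of the 9771 such genes differed at least as much as CD44. In the thinned cells CD44 was seen in 13.9% of cluster 0, 12.4% of cluster 3 and 1.42% of cluster 1. Most cells of clusters 0 and 3 thus had no CD44 UMI at that depth. How much of the unevenness lay between clusters and how much within them was not tested.

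EHF showed the same order at the low end. It was at 3.23 CPM in cluster 1 (interval 1.55 to 5.94, 10 UMIs), 19.0 in cluster 4 (interval 13.7 to 25.5), 35.9 in cluster 2, 37.2 in cluster 0 and 47.0 in cluster 3 (interval 38.2 to 57.3), a range of 14.6-fold (interval 7.59 to 31.3). CAT followed with 2.15-fold (interval 1.45 to 3.23), from 17.6 CPM in cluster 4 to 37.9 in cluster 3, and was at 21.9 CPM in cluster 1. APIP and PDHX were both lowest in cluster 1, at 69.4 and 71.0 CPM, and both highest in cluster 0, at 106.6 and 105.7 CPM. The ranges were 1.54-fold (interval 1.31 to 1.80) and 1.49-fold (interval 1.27 to 1.75), beside 1.43-fold for the median gene, which was not matched by count. Over the clusters of at least 50 cells, CSTF3, CAPRIN1, NAT10 and HIPK3 varied by 1.12-fold to 1.29-fold, and TRAF6, on few counts, by 1.83-fold (interval 0.924 to 3.80). Of the 10 genes, CD44 and EHF alone differed by more than 10-fold between these 5 clusters, as did 0.368% of the genes with at least 100 UMIs. At a coarser clustering, with 1056 cells in 1 cluster, this pattern was merged: CD44 was at 55.4, 58.4 and, in 9 cells, 160 CPM. At a finer resolution of 0.8, with 8 clusters, CAT differed 4.50-fold, from 14.4 CPM (interval 9.72 to 20.6) to 64.9 CPM (interval 50.2 to 82.6). EHF differed 26.1-fold there, and the genes other than CD44, EHF and CAT by at most 2.04-fold (TRAF6). In the 9 cells of cluster 5 of the main clustering, CSTF3 was at 22.9 CPM (interval 2.77 to 82.5, 2 UMIs). CAT was at 80.0 CPM there (interval 32.2 to 165, 7 UMIs).

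**Figure D3:**
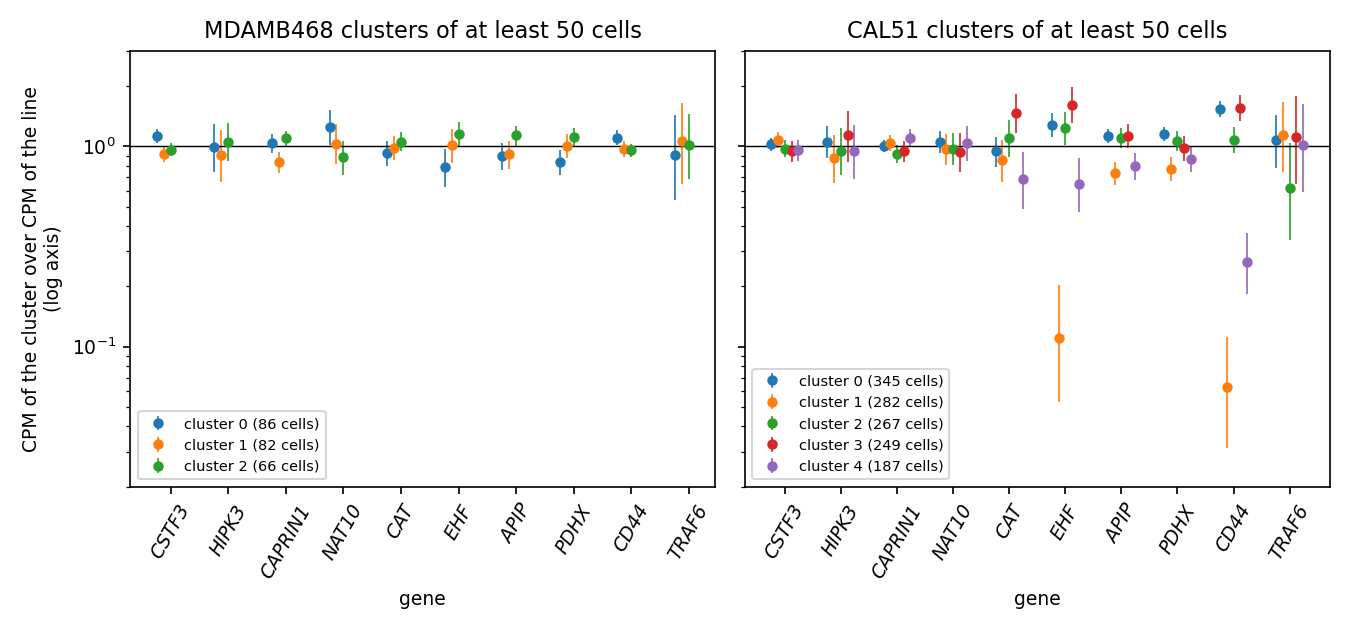
CPM of each gene in a cluster divided by its CPM in the whole line (log axis), for the MDAMB468 clusters (left) and the CAL51 clusters (right) of at least 50 cells; bars are 95% Poisson intervals. In CAL51, CD44 and EHF drop in clusters 1 and 4 while CSTF3, CAPRIN1 and NAT10 stay near 1, and in MDAMB468 no gene departs as far.

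In MDAMB468 CD44 was nearly level. It was at 350 CPM (interval 321 to 382) in cluster 0, with 86 cells led by genes that include ADAMTS1 and S100A7, at 308 CPM (interval 279 to 338) in cluster 1, with 82 cells led by H1-1 and S phase genes, and at 304 CPM (interval 281 to 327) in cluster 2, with 66 mitotic cells. The range over these clusters was 1.15-fold (interval 1.03 to 1.30), beside 1.27-fold for the median gene with at least 100 UMIs. Genes were not matched by count, and counting error widens the range of thinly counted genes, so the 2 values are not directly comparable. EHF ranged from 57.5 CPM in cluster 0 to 83.7 in cluster 2, or 1.46-fold (interval 1.12 to 1.90). Cluster 3, with 8 cells led by interferon response genes such as IFIT2, had CD44 at 292 CPM (interval 211 to 393). It had 0 NAT10 UMIs, with an interval up to 25.1 CPM. Every MDAMB468 cluster of at least 50 cells stood above every such CAL51 cluster in CD44, at 304 CPM or more against 88.3 or less, and likewise in CAT, at 137 CPM or more against 37.9 or less. For EHF the lowest MDAMB468 cluster (57.5 CPM, interval 46.0 to 71.0) and the highest CAL51 cluster (47.0 CPM, interval 38.2 to 57.3) had overlapping intervals. Clusters of 1 library are not replicates, and median depth differed between the CAL51 clusters, from 6680 UMIs in cluster 3 to 11642 in cluster 0.

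Covariation between single cells was weak for all 9 neighbours. At 2500 UMIs the Pearson correlation of CD44 with a neighbour ran from -0.13 (HIPK3) to 0.12 (NAT10) over 242 MDAMB468 cells, with a median of -0.02. Its correlation with the summed neighbours was -0.0031. The middle 95% of the 5957 genes with a mean of at least 0.05 UMIs spanned -0.12 to 0.14, and 10 random thinnings gave both signs for each of the 9 neighbours. In CAL51 the correlations ran from -0.05 (NAT10) to 0.10 (EHF) over 1339 cells, with a median of -0.01. The middle 95% of 6446 genes there spanned -0.05 to 0.07. The value of EHF was above that span, at percentile 99.2, and was positive in all 10 thinnings (0.02 to 0.15), as was that of PDHX (0.01 to 0.05), while that of CAPRIN1 was negative in all 10 (-0.05 to -0.0021). At 5000 UMIs, over 1069 cells, EHF was at 0.09 and APIP at 0.07, the highest of the 9. CAPRIN1 was at 0.03 there, so its sign did not hold between depths. For APIP the value at 2500 UMIs used here, -0.03, was the lowest of the 10 thinnings, of which 9 were positive. Cells with both CD44 and EHF numbered 13, where independence would give 7.20. Within CAL51 clusters the CD44 and EHF correlation was 0.18 in cluster 0, 0.03 in cluster 2, -0.03 in cluster 3 and 0.33 in cluster 4, the last resting on 7 cells with a CD44 UMI. These counts are sparse, the cells share 1 library per line, and the values are given as a description.

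**Figure D4:**
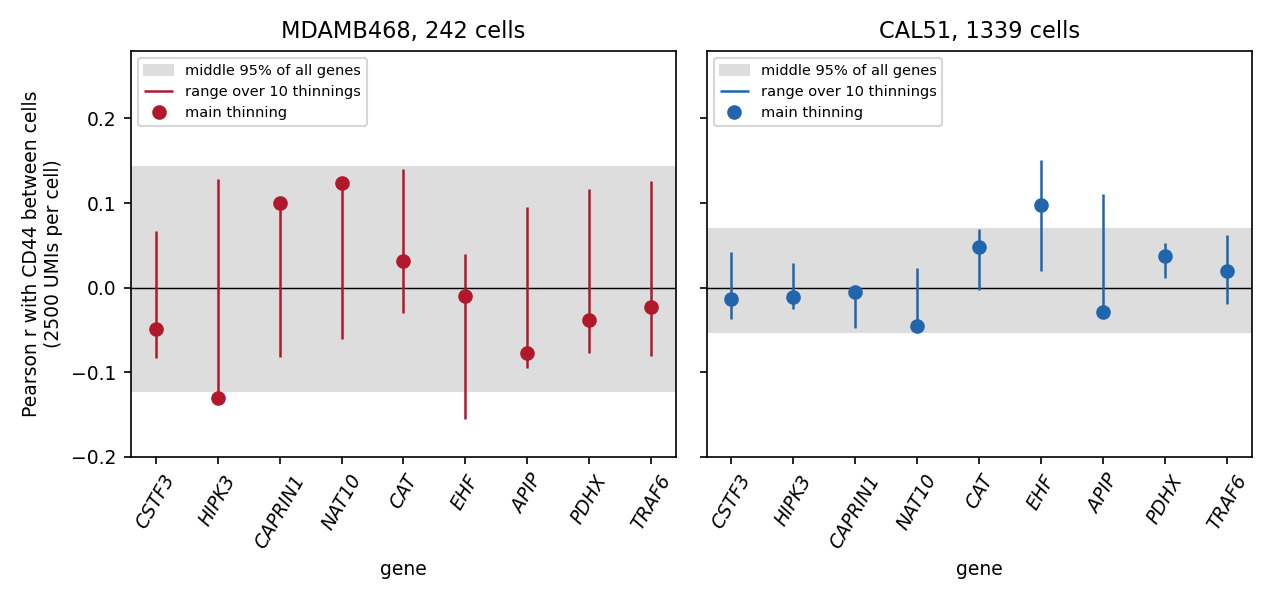
Pearson correlation of CD44 with each neighbour between cells thinned to 2500 UMIs, in MDAMB468 (left, 242 cells) and CAL51 (right, 1339 cells). Points are the thinning used in the text, lines the range over 10 thinnings, and the grey band the middle 95% of the genes with a mean of at least 0.05 UMIs; most points lie within the band, EHF in CAL51 lies above it and HIPK3 in MDAMB468, at -0.13, below it.

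The genes most like CD44 within a line were ranked among genes with a mean of at least 0.2 thinned UMIs, which leaves out EHF, CAT, NAT10, HIPK3 and TRAF6 in CAL51 and NAT10, HIPK3 and TRAF6 in MDAMB468. Of 2371 such CAL51 genes, high correlations were those of AKR1C1 (0.24), ANXA4 (0.23), AGR2 (0.20), CROT (0.19), GSTP1 (0.18), SLC12A2 (0.18) and PKP2 (0.13). At 5000 UMIs the correlations of these genes were positive as well, from 0.14 for PKP2 to 0.35 for AKR1C1, an aldo-keto reductase. AGR2 encodes a protein disulfide isomerase of secretory epithelium and ANXA4 a calcium-dependent membrane-binding protein. In MDAMB468, of 2031 genes, COTL1 (0.31), VMA21 (0.22), RAP1A (0.21), ARF1 (0.20), PRDX1 (0.20), ADAR (0.20), PLPP2 (0.20) and YTHDC1 (0.20) came first. At 5000 UMIs COTL1 fell to 0.06 and VMA21 to -0.07, so the MDAMB468 order was not stable between depths.

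Lists of partners of the 10 genes differed in direction from each other. Their counts past 2-fold are to be read against 18.9% of all genes in favour of MDAMB468 and 22.4% in favour of CAL51. Of 20 listed partners of CD44 and hyaluronan, 13 had at least 20 UMIs, of which 1 was past 2-fold in favour of MDAMB468 (18.9% of all genes) and 4 in favour of CAL51 (22.4% of all genes), with a median ratio of 0.773. The highest was ESRP1, an epithelial splicing regulator that acts on CD44 transcripts, with 349 UMIs in MDAMB468 and 0 in CAL51. It was at least 277.5-fold higher in MDAMB468 by the counting interval, and 343-fold with the 0 set to a floor of 3 counts. The lowest was SPP1, which encodes the CD44 ligand osteopontin, with 0 and 929 UMIs. SPP1 was at least 85.2-fold higher in CAL51 by the counting interval, and 105-fold with that floor. In the list of EHF and other epithelial factors, 7 of 10 were past 2-fold in favour of MDAMB468, against 18.9% of all genes. In favour of CAL51 it was 1, against 22.4%. The 7 include EHF itself, chosen with its ratio known, and ELF5 from the same window, so the count is a description. The list ran from TFAP2C (442 and 0 UMIs) to KLF5 (171 and 2043 UMIs, 4.05-fold higher in CAL51), with a median ratio of 12.6. TFAP2C was at least 351.8-fold higher in MDAMB468 by the counting interval, and 434-fold with the 0 set to 3 counts.

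CSTF3 had the highest ratio of the 16 cleavage and polyadenylation genes, whose median was 0.953 and of which 1 was past 2-fold in each direction; the lowest was SYMPK, with 23 and 137 UMIs and a ratio of 0.495. CAT likewise had the highest ratio of 13 genes of peroxide removal, of which 2 were past 2-fold in favour of MDAMB468 and 3 in favour of CAL51, near the shares over all genes. PRDX3, a mitochondrial peroxiredoxin, was the lowest, with 688 and 6179 UMIs and a ratio of 0.328. HIPK3 was the highest of 3 HIPK genes, the others being HIPK1 (0.807) and HIPK2 (0.665). In the pyruvate dehydrogenase list, PDHX (1.63) stood beside PDHA1 (1.65), the highest of 10, while PDHB, the partner of PDHA1 in the catalytic subunit, was at 0.304, so that 0 genes were past 2-fold in favour of MDAMB468 and 2 in favour of CAL51.

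In the methionine salvage list of 9 genes APIP (1.25) lay between MRI1, the enzyme of the preceding step (2.85), and ADI1 (0.689), with 2 past 2-fold in favour of MDAMB468, near the 18.9% of all genes, and 0 in favour of CAL51. Of 16 genes of TRAF6 signalling 4 were past 2-fold in favour of MDAMB468, near the 18.9% of all genes, and 0 in favour of CAL51, from TNFAIP3 (40 and 24 UMIs, ratio 4.91) to TAB2 (139 and 774 UMIs, ratio 0.530). Of 11 stress granule genes 0 were past 2-fold in either direction. CAPRIN1 (1.57) stood between FMR1 (1.75) and G3BP2 (0.521), a G3BP protein that binds CAPRIN1. Of 8 nucleolar and RNA acetylation genes 2 were past 2-fold in favour of MDAMB468, with DKC1 at 2.53, and THUMPD1, the adaptor of NAT10 for transfer RNA, was lowest at 0.507.

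The markers of the labelled type were unevenly present. Summed over 6 epithelial markers the level was 5105 CPM in MDAMB468 and 2788 CPM in CAL51. The largest part in MDAMB468 was KRT19, at 1934 CPM (10640 UMIs) against 30.6 CPM (496 UMIs) in CAL51. EPCAM was at 867 and 283 CPM, KRT8 at 764 and 919 CPM and KRT18 at 555 and 1555 CPM in MDAMB468 and CAL51, while KRT7 (5243 and 0 UMIs) and CDH1 (182 and 7 UMIs) were at or near 0 in CAL51. Of the receptors whose absence defines the label, ESR1 had 3 and 0 UMIs and PGR 1 and 1, while ERBB2 had 39 and 262 UMIs (7.09 and 16.1 CPM). Markers of other cell types were at or near 0: PTPRC had 0 and 3 UMIs, PECAM1 6 and 4, and DCN 1 and 1, but the fibroblast marker COL1A2 had 0 and 863 UMIs and COL1A1 22 and 11. The part of these markers in the line ratios was not tested. Genes that overlap the listed ones had few counts beside them, such as CD44-AS1 with 1 and 3 UMIs and TCP11L1, opposite CSTF3, with 74 and 104. APIP and PDHX overlap each other on opposite strands. The sources used here do not say whether the counting used the strand.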

How the data were processed

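UMI counts per gene and barcode were used as deposited by the authors, as whole numbers, for 30796 genes and 1683 barcodes. The submitters' processing notes name STARsolo, while the sources used here do not give its version, the genome build, the annotation or how barcodes were chosen. The prefix of each barcode name gave the line. Symbols were found for 30730 identifiers and positions (GENCODE release 29, GRCh38) for 29416. The members and gene lists were chosen with earlier results of these data known. Counts were summed over the barcodes of a line, without barcode sequences found under both prefixes in CAL51, and scaled to the line total (CPM). Ratios have exact intervals given the summed count of both lines, levels exact Poisson intervals, shares exact Clopper-Pearson intervals, and ratios of ratios normal intervals on the log scale, all at 95% and for counting error only, and a line at 0 was set to 3 counts. With 1 library per line no p-value was computed.

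Named genes are the 10 listed ones, the 3 highest and 3 lowest others of the window and the tested gene next to CD44, the extremes of each partner list, and the 8 genes most correlated with CD44 in each line, without mitochondrial and ribosomal protein genes (1 of them is not reported here); others were picked after their values were seen. Cells were thinned without replacement to 2500 UMIs. Clusters came from scanpy 1.11.5 and leidenalg 0.10.2 (2000 variable genes without the members, 30 components, 15 neighbours, resolution 0.5), on cells without satellite barcodes, as defined in the text. The MDAMB468 clusters were added after the data were seen. Doublets were not called or removed. TMM factors came from edgeR 4.0.16 and the median of ratios from DESeq2 1.42.0, as scaling alternatives alone. The interval and correlation functions were tested on simulated data. The software was R 4.3.3 and Python 3.11.15 with pandas 2.3.3, scipy 1.17.1 and numpy 2.4.6.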

Additional observations from a re-analysis of the deposited data

Results flagged for a closer look

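The 31 CAL51-labelled barcodes whose sequence also occurs in MDAMB468 were left out of every comparison of the report (1 alternative setting kept them), and 5 of the 10 genes stood there above their level in the other CAL51 barcodes. CD44 was at 370 CPM (interval 274 to 487, 50 UMIs) against 57.0 CPM in the other CAL51 barcodes and 320 in MDAMB468. CAT was at 110.9 CPM (interval 62.1 to 183) against 25.7, and 150.1 in MDAMB468. EHF was at 103.5 CPM (interval 56.6 to 174) against 29.2, and 74.0 in MDAMB468. CSTF3 was at 392 CPM (interval 294 to 513) against 135.9, and 358 in MDAMB468. NAT10, on 12 UMIs, was at 88.7 CPM (interval 45.8 to 155) against 41.9, and 51.6 in MDAMB468. For these 5 genes the MDAMB468 level lay within the interval. These barcodes hold 135240 UMIs in all, and the other 5 genes had intervals that included their level in CAL51. Among those 5, the interval of PDHX (16.3 to 96.6 CPM) lay below its MDAMB468 level of 149.9 CPM. How many of all genes stood above their CAL51 level in these barcodes was not counted. The 5 of 10 can therefore not be called particular to this list.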

How the results depend on the processing

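No paired analysis was possible because each line is 1 library and the result comes from no test. The ratio of CD44 was 5.12 with TMM factors, 5.08 with the median of ratios, 4.93 as a ratio of CPM + 10 and 7.14 as the mean CPM of single barcodes. In that last setting NAT10 and APIP were at 1.04 and 1.05. Leaving out the shared and the satellite barcodes in both lines, a setting added after the data were seen, put TRAF6 at 1.23. The median of the neighbours was 2.34 over every gene tested in the window, against 1.80 over the 9 listed. Genes past 2-fold in favour of MDAMB468 numbered 2896, and 12016 with no filter on low counts or 1416 with at least 100 UMIs. CD44 was seen in 75.0% of MDAMB468 and 14.97% of CAL51 cells at 5000 UMIs, and in 86.0% and 22.2% without thinning. Over all 6 CAL51 clusters the highest CD44 level was 45.1 times the lowest, set by 9 cells, and 2.89 times at a resolution of 0.3, where clusters merge, against 31.6 at 0.8. Of the ratios of CD44's line ratio to a neighbour's, 28 recomputed values stayed within their counting intervals and 8 rose above them. Those 8 came from weighing single barcodes equally, a setting added after the data were seen: 2.86 for CSTF3, 4.21 for HIPK3, 4.34 for CAPRIN1, 6.85 for NAT10, 1.22 for CAT, 6.81 for APIP, 4.60 for PDHX and 4.42 for TRAF6. EHF, at 2.33, stayed within. For TRAF6 and HIPK3 depth limits every statement on single cells.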
